A study of Mus musculus with 6 samples.

Results

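The 10 genes described here belong to the hypoxia response: 2 oxygen-regulated subunits of the hypoxia-inducible factors (Hif1a and Epas1), 2 of the prolyl hydroxylases that mark those subunits for destruction (Egln1 and Egln3), and 6 targets outside glycolysis (Vegfa, Adm, Bnip3, Pdk1, Ankrd37 and Ddit4). They were chosen by name, with earlier results of these data known, so counts of them set against all probes are a description only. Every probe on the arrays that is not a control and carries one of these gene names was taken. That gave 17 of the 55681 probes, or 10 of the 34844 names that probes carry. RNA came from G1E-ER-GATA-1, a mouse erythroid progenitor line without its own Gata1 that carries GATA-1 fused to an estrogen receptor domain, which becomes active, and drives red cell maturation, when β-estradiol is added. Cells were transfected at 0 h and again at 24 h with non-targeting siRNA (3 arrays) or with SetD8 siRNA (3 arrays), and RNA was taken at 48 h. Setd8 encodes the enzyme that places a single methyl group on lysine 20 of histone H4. Both groups received β-estradiol for 24 h and grew in erythropoietin, conditioned medium with Kit ligand and puromycin. All values therefore belong to maturing cells of a single line, with no untreated cells beside them, and the labels name no low-oxygen treatment. Whether the 3 arrays of a group stand for separate cultures is not stated, and p-values may then cover technical spread alone. The labels name a single SetD8 siRNA reagent, so effects of that reagent and of Setd8 loss cannot be told apart.

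In cells with enough oxygen, prolyl hydroxylases of the EGLN family hydroxylate the HIF alpha subunits, and the von Hippel-Lindau protein then directs them to the proteasome. When oxygen is scarce the alpha subunits escape, pair with ARNT and bind hypoxia-response elements, which share the core ACGTG or GCGTG. Hif1a protein is regulated mainly after translation, so its mRNA is a poor guide to its activity. In the red cell lineage the pathway is best known for the control of erythropoietin and of iron supply. Its targets also limit the use of pyruvate by mitochondria and help to remove mitochondria.

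Promoter sequences were available for 9 of the 10 members, in 11 windows that run from 250 bases before to 50 bases after an annotated start (RefSeq, GRCm38.p6); Epas1 had none. The core ACGTG or GCGTG, searched on both strands, was found in 9 of the 11 windows and in at least 1 window of all 9 genes, against 43.8% of all 32851 promoter windows. A palindromic CACGTG counts once on each strand. At least 3 cores stood in 3 of the 11 member windows (Bnip3, Ankrd37 and Hif1a), against 8.93% of all windows. Bnip3 held 5, the most of the members. The Vegfa window at its upstream start held 0, and its 2 cores lay in the window of another annotated start further into the gene. A match describes these letters only, and is no evidence of binding. The 50-base stretches with most cores are shown, 5′ to 3′ on the gene's strand with the cores in capitals, for Bnip3 and Pdk1, whose signal was lower on every SetD8 array, for Ankrd37, whose groups overlapped, and for Ddit4, whose mean was not lower.
Bnip3, chr7:138909587-138909636, minus strand: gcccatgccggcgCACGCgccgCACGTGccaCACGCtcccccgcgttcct
Pdk1, chr2:71873123-71873172, plus strand: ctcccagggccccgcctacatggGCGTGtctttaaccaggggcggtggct
Ankrd37, chr8:45999977-46000026, minus strand: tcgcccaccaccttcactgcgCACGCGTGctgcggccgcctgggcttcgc
Ddit4, chr10:59951931-59951980, minus strand: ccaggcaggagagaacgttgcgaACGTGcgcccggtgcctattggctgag
The Bnip3 stretch holds 4 of its 5 cores, with the first base of the stretch at -130 and the last at -81 from the start. The Ankrd37 stretch holds 2 overlapping cores, and those of Pdk1 and Ddit4 hold 1 each.

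**Figure D1:**
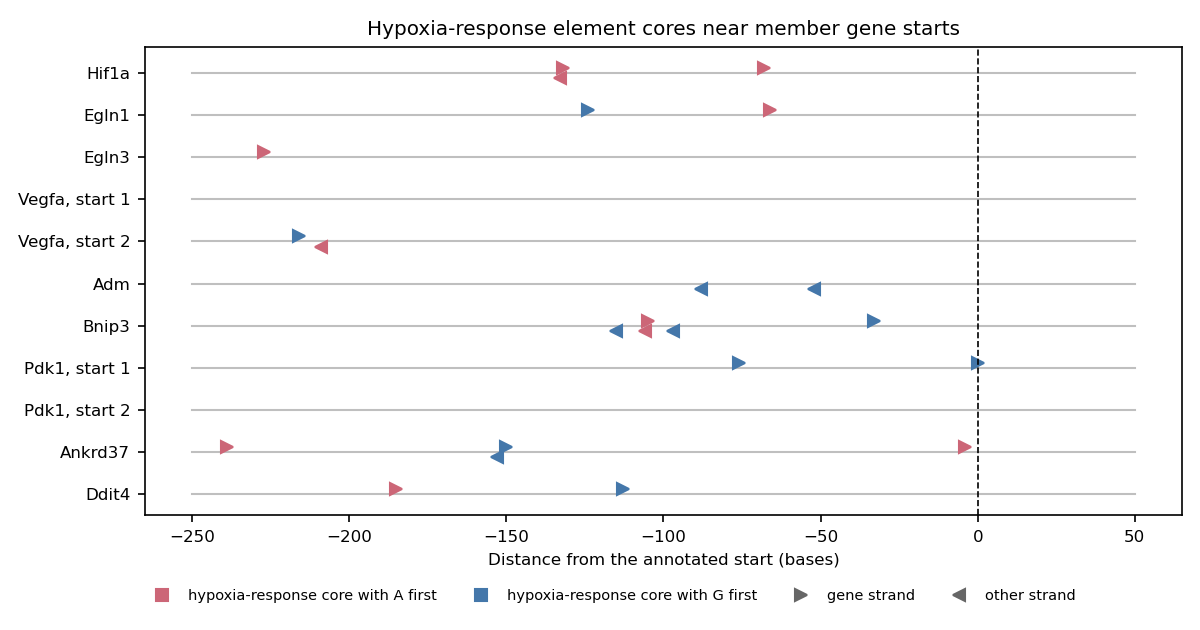
Position of hypoxia-response cores in the 11 member windows, in bases from the annotated start (dashed line at 0). Triangles point along the strand that carries the core; Bnip3 has 5 cores, and the first Vegfa and second Pdk1 windows have 0.

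Values come from 2 settings, both on the log2 scale, and differences are SetD8 siRNA minus control siRNA. In the first, the processed spot signal was divided by each array's 75th percentile. In the second, the mean signal was corrected for local background by normexp with an offset of 50 and quantile-normalized between arrays. The offset makes fold changes of dim probes smaller than they are. The first was fixed as the main setting, and the second was carried because an earlier analysis had found 0 calls in the first. Per-array values below are nevertheless those of the second setting. Its median residual SD over all tested probes was 0.24, against 0.51 in the first. The offset shrinks spread as well as fold changes, so these SDs do not rank the settings by precision. Testing was limited to probes that all 3 arrays of either group showed well above background, which kept 30971 probes, 12 of them members from 9 genes. Adjusted p-values are from limma with Benjamini-Hochberg adjustment over all 30971 probes.

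The arrays were of unequal quality, and the number of arrays limits the precision. The share of spots well above background ran from 40.2% (control 2) to 82.5% (control 3), and from 60.3% to 68.6% on the SetD8 arrays. Slide 1 carried control 1 with SetD8 1 and 2, slide 3 carried control 3 with SetD8 3, and slide 2 carried only control 2. The targeted gene followed the labels. The brighter Setd8 probe (chromosome 5, 124911883 to 124911942, mm9) read 11.50, 11.58 and 11.25 in the control arrays and 9.58, 9.26 and 9.25 in the SetD8 arrays, a difference of -2.08 ± 0.16 (SE, limma adjusted p = 0.017). With slide as a block the adjusted p was 0.0771, and in the first setting the difference was -2.23 (limma adjusted p = 0.917). The other Setd8 probe (124897355 to 124900704) differed by -1.13 ± 0.24 (SE, limma adjusted p = 0.147) and did not pass. Its difference in the first setting was -1.35 (limma adjusted p = 0.917). The erythroid markers Klf1, a transcription factor, and Alas2, the first enzyme of red cell heme synthesis, were well above background on all 6 arrays, with differences of 0.03 and 0.02. Other erythroid markers differed more. Slc4a1, the red cell anion exchanger band 3, read 12.47, 12.34 and 12.99 in the control arrays and 11.03, 10.91 and 12.24 in the SetD8 arrays (-1.21, limma adjusted p = 0.304). On this probe SetD8 3 was the SetD8 array nearest to the controls. The adult globin gene Hbb-b1 read 13.35, 12.97 and 14.34 against 14.29, 14.29 and 15.61 (1.18, limma adjusted p = 0.455). Markers of other cell types gave summed signals of 4640 to 4700 in controls and 4970 to 6640 in SetD8 arrays for macrophages and granulocytes, 11600 to 21700 against 17700 to 31700 for megakaryocytes, and 1520 to 2430 against 1960 to 2750 for mast cells. Of the 10 genes in each of these lists, 5, 5 and 3 were well above background on all arrays. Their part in the results below was not tested.

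Of the 12 tested member probes, 0 passed an adjusted p of 0.05 with limma in either setting. At an unadjusted p under 0.05 there were 6 lower and 0 higher in each setting, and these 6 were the same probes, the 2 of Vegfa, the 3 of Bnip3 and that of Pdk1. On each of the 6, every SetD8 array lay below every control array, in both settings. Over all 30971 probes in the second setting, 0.0226% were called lower and 0.297% higher after adjustment, and 4.87% were lower and 5.55% higher at an unadjusted p under 0.05. Every SetD8 array lay below every control array for 8.67% of them and above for 9.17%, and the difference was negative for 48.3%, against 9 of the 12 member probes. In the first setting 0% were called in either direction, 0.817% were lower and 2.05% higher at an unadjusted p under 0.05, and 3.42% and 4.79% had groups that did not overlap. The difference there was negative for 43.1% of all probes and for 8 of the 12 member probes. The median difference of the 12 probes was -0.69, against 0.01 over all tested probes, and -0.99 against 0.11 in the first setting. With 1 probe for each gene the median of the 9 genes was -0.34. Probes of 1 gene are not independent, so the 6 probes stand for 3 genes.

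**Figure D2:**
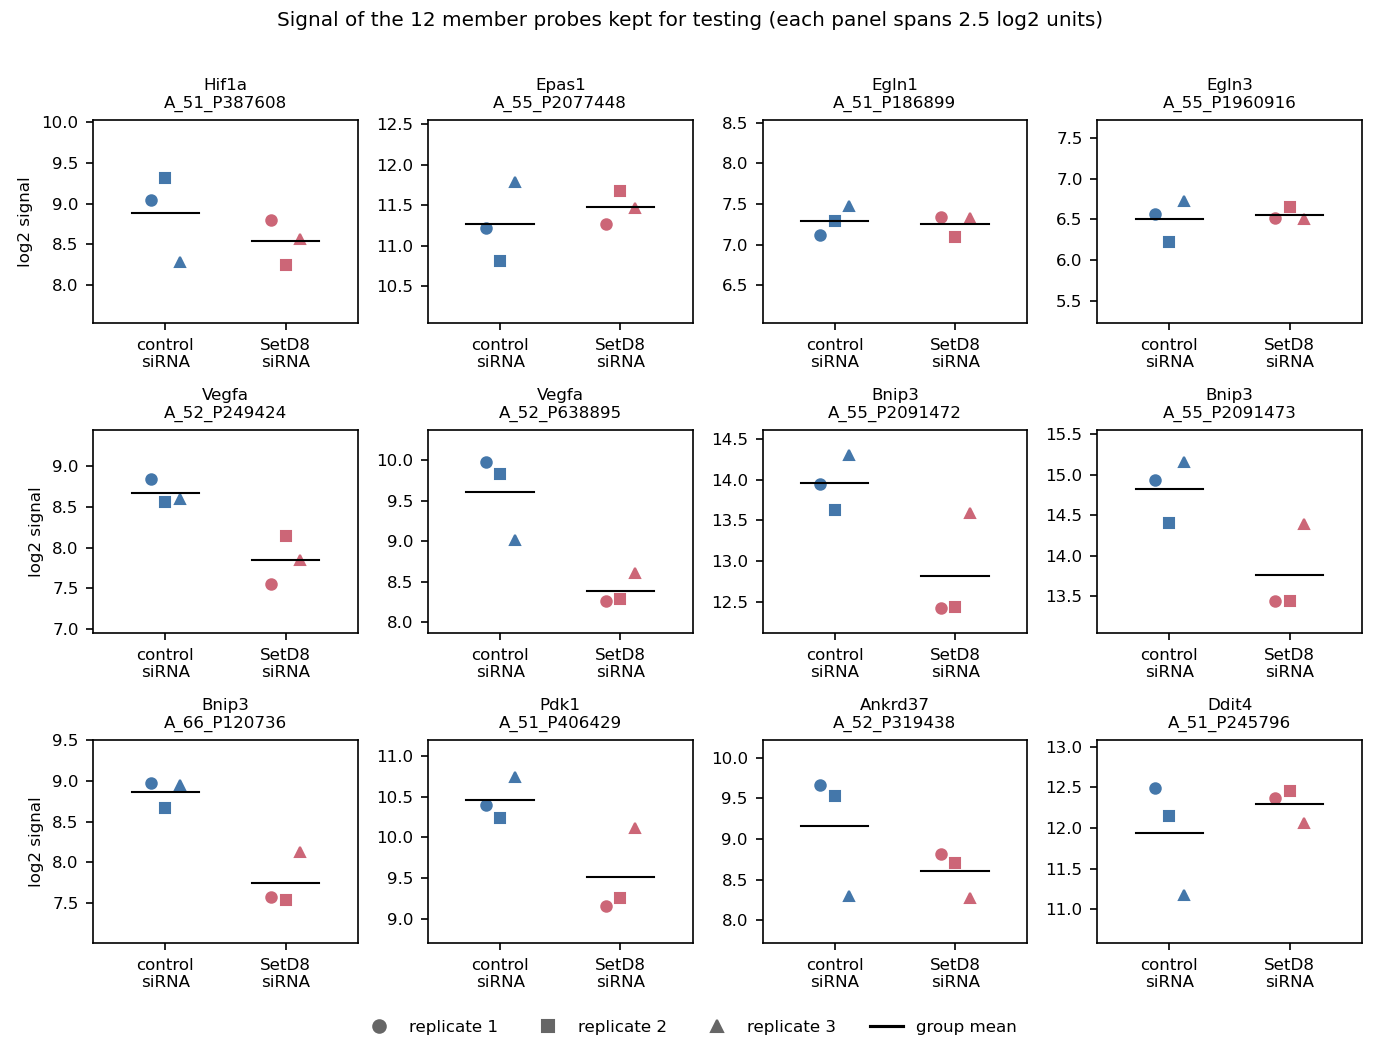
Log2 signal after normexp and quantile normalization for each of the 12 tested member probes, with a point for each array (shape gives the replicate number) and a bar for the group mean of 3 arrays. The groups do not overlap for Vegfa, Bnip3 and Pdk1, and they overlap in the other 6 panels.

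The HIF subunits did not pass the test in either direction. Hif1a encodes the subunit present in most cells. Its probe at chromosome 12, 75047269 to 75047329, read 9.05, 9.31 and 8.28 in the control arrays, in the order 1 to 3, and 8.80, 8.25 and 8.57 in the SetD8 arrays. Control 3 lay among the SetD8 arrays and the groups overlapped. The difference was -0.34 ± 0.29 (SE, limma adjusted p = 0.802). It was -0.52 within slide 1 and 0.28 within slide 3, so its sign differed between the slides. Without control 3 it was -0.64 (limma adjusted p = 0.172) and without control 2 it was -0.13. The other Hif1a probe (75033965 to 75034024) was well above background on 0 of 6 arrays.

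Epas1 encodes HIF-2 alpha, the subunit best known from endothelial cells and from the kidney cells that make erythropoietin. Its 3 probes disagreed on whether the gene is detected. The probe at chromosome 17, 87230678 to 87230737, read 11.22, 10.81 and 11.79 on the controls and 11.27, 11.68 and 11.47 on the SetD8 arrays. The groups overlapped, with a difference of 0.20 ± 0.26 (SE, limma adjusted p = 0.883). The neighbouring probe at 87230587 to 87230646 was well above background on 0 of 6 arrays, with a processed signal of 2.96, 4.01 and 4.2 intensity units on the controls and 5.11, 3.01 and 15.5 on the SetD8 arrays. The third probe (87232615 to 87232674) was well above background only on SetD8 3, at 424 intensity units against 2.95 to 4.69 on the other 5 arrays. The level of Epas1 is therefore not settled by these probes.

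The probes of Epas1 also differ in sequence, shown as 30-base excerpts around the longest run of C and T, which is in capitals.
Epas1, bright probe: aagaTTTCCCCCTCCCTCCCTCCCTTgaat
Epas1, neighbouring dim probe: ccaagcagtggCCTTTatctgacatgctca
The run is 22 bases in the bright probe, a length that 0.104% of all probes on the array reach, and 5 bases in each of the other Epas1 probes, a length reached by 73.2%. Whether the run bears on the signal was not tested.

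SetD8 3 also stood apart on part of the list of endothelial and stromal markers. The summed signal of the 10 listed markers was 2050 on SetD8 3, against 1050 and 1100 on the other SetD8 arrays and 922 to 1100 on the controls. Col1a2, a fibrillar collagen, read 9.14 on SetD8 3 and 6.78 to 7.38 elsewhere, and Col3a1, another, read 8.35 against 6.29 to 6.71. The stromal markers Col1a1 and Acta2 were also highest on SetD8 3. The stromal markers Thy1 and Dcn did not stand apart. Thy1 read 6.55 on SetD8 3, below control 2 (6.63) and control 3 (6.76). Dcn read 6.85 on SetD8 3, close to control 2 (6.8). Of the endothelial markers, Pecam1, Tek and Vwf did not stand apart there, at 7.25, 6.42 and 6.77, each below at least 1 control array. Cdh5, also endothelial, read 6.85 on SetD8 3 and 6.02 to 6.31 elsewhere. It was well above background on 0 control arrays and 1 SetD8 array. Across all probes, 22 were higher on SetD8 3 than on each other array by at least 2 log2 units, against 0 to 5 for each of the other arrays. The part of these markers in the Epas1 signal was not tested.

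The prolyl hydroxylases did not pass either, and the tested Egln3 probe was not well above background on every array. EGLN1 (PHD2) is the main oxygen sensor of the family, and EGLN3 (PHD3) is itself induced by HIF in many cells. The Egln1 probe, listed at chromosome 8, 127432487 to 127432499, read 7.12, 7.29 and 7.48 on the controls and 7.34, 7.09 and 7.33 on the SetD8 arrays. The difference was -0.04 ± 0.15 (SE, limma adjusted p = 0.962) and the arrays of the groups interleaved. It was 0.21 in the first setting, so its sign depends on the scaling. The Egln3 probe at chromosome 12, 55281252 to 55281311, was well above background on 2 of 3 control arrays and on 3 SetD8 arrays. It read 6.57, 6.22 and 6.73 against 6.52, 6.65 and 6.51, a difference of 0.05 ± 0.17 (SE, limma adjusted p = 0.958). The other Egln3 probe was well above background on 0 of 6 arrays.

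Bnip3 had the smallest adjusted p among the members in the second setting. BNIP3 is a mitochondrial outer membrane protein that promotes mitophagy and is a close relative of BNIP3L (NIX), which clears mitochondria from maturing red cells. On the probe at chromosome 7, 146082536 to 146082595, the signal was 8.98, 8.67 and 8.95 in the control arrays and 7.57, 7.53 and 8.13 in the SetD8 arrays. All SetD8 arrays lay below all controls, and SetD8 3 was the highest of them. The signal was 2.18-fold lower after SetD8 siRNA, a difference of -1.12 ± 0.20 (SE, limma adjusted p = 0.0961). Only 0.0549% of all tested probes had a more negative difference. With slide as a block the difference was -1.17 (limma adjusted p = 0.177). In RNA from whole cultures, fewer cells that express a gene and less RNA per cell cannot be told apart.

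The other Bnip3 probes lie at neighbouring positions and gave the same order of groups. The brightest (146082760 to 146082819) gave 14.93, 14.40 and 15.15 on the controls and 13.45, 13.45 and 14.39 on the SetD8 arrays, a difference of -1.06 ± 0.32 (SE, limma adjusted p = 0.278). Its groups were separated by a narrow gap, since SetD8 3 came close to control 2. The probe at 146082640 to 146082699 gave 13.95, 13.63 and 14.31 against 12.42, 12.44 and 13.59, a difference of -1.14 ± 0.35 (SE, limma adjusted p = 0.299). SetD8 3 was again the array nearest to the controls. Over the 3 probes the difference was -1.43 to -1.52 within slide 1 and -0.71 to -0.82 within slide 3. In the first setting the 3 differences were -1.30 to -1.47, with an adjusted p of 0.917 each.

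Vegfa encodes vascular endothelial growth factor A, the main secreted signal by which oxygen-starved tissue attracts vessels. Vegfa lies on the minus strand, and its probe nearer the 3′ end (chromosome 17, 46154387 to 46154446, measured in 2 spots) read 9.98, 9.83 and 9.01 in the control arrays and 8.26, 8.29 and 8.61 in the SetD8 arrays. Control 3 was the lowest control and SetD8 3 the highest SetD8 array, and the groups did not overlap. The signal was 2.33-fold lower after SetD8 siRNA, a difference of -1.22 ± 0.27 (SE, limma adjusted p = 0.157). It was -1.70 within slide 1 and -0.40 within slide 3. Without control 3 it was -1.52 and passed, with a limma adjusted p of 0.0329. Leaving out any other single array gave -1.04 to -1.33, with limma adjusted p of 0.242 to 0.563. The first setting gave -1.53 (limma adjusted p = 0.917), with an adjusted p of 0.205 without control 3.

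The other Vegfa probe lies nearer the 5′ end, at 46162376 to 46162435. It read 8.85, 8.56 and 8.60 on the controls and 7.55, 8.15 and 7.85 on the SetD8 arrays, and here control 3 stood with the other controls. The signal was 1.76-fold lower after SetD8 siRNA, a difference of -0.82 ± 0.19 (SE, limma adjusted p = 0.167). It was -1.0 within slide 1 and -0.75 within slide 3, closer to each other than on the first probe. Its value in the first setting was -1.10 (limma adjusted p = 0.917). Both probes gave differences in the same direction, of unequal size.

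Pdk1 encodes pyruvate dehydrogenase kinase 1, which shuts pyruvate out of the mitochondrial citric acid cycle by inactivating pyruvate dehydrogenase. Its probe (chromosome 2, 71739688 to 71739747) read 10.40, 10.24 and 10.74 on the controls and 9.16, 9.26 and 10.11 on the SetD8 arrays. As for Bnip3, SetD8 1 and SetD8 2 were low and SetD8 3 lay just under the lowest control. The signal was 1.93-fold lower after SetD8 siRNA, a difference of -0.95 ± 0.28 (SE, limma adjusted p = 0.279). It was -1.18 within slide 1 and -0.63 within slide 3. In the first setting it was -1.52 within slide 1 and -0.03 within slide 3.

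Ankrd37, an ankyrin repeat gene known chiefly as a HIF target, and Ddit4 did not separate the groups. The Ankrd37 probe (chromosome 8, 47082404 to 47082463) read 9.66, 9.53 and 8.30 on the controls and 8.82, 8.71 and 8.28 on the SetD8 arrays, a difference of -0.56 ± 0.37 (SE, limma adjusted p = 0.725). Controls 1 and 2 were above all SetD8 arrays, and control 3 lay beside SetD8 3. Without control 3 the difference was -0.99 (limma adjusted p = 0.105) and without control 1 it was -0.31. Ddit4 encodes REDD1, a brake on the growth kinase complex mTORC1 that is induced by HIF and by other stress pathways. Its probe (chromosome 10, 59412486 to 59412545) read 12.49, 12.15 and 11.18 on the controls and 12.37, 12.46 and 12.06 on the SetD8 arrays. Apart from control 3, which was low, the groups interleaved, and the difference was 0.35 ± 0.34 (SE, limma adjusted p = 0.825). Without control 3 it was -0.03, so the sign rests on that array. Adm, the vasodilator peptide adrenomedullin, was well above background on 0 of 6 arrays (chromosome 7, 117773088 to 117773147), with processed signals of 3.1 to 14.8 intensity units.

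On the 6 Vegfa, Bnip3 and Pdk1 probes every SetD8 array lay below every control array, so their differences within slides could only be negative. These differences were larger in size in slide 1 in each case, in both settings. In the first setting those within slide 3 were small for several probes, at -0.10 and -0.68 for Vegfa, -0.28 to -0.72 for Bnip3 and -0.03 for Pdk1. Slide 3 compares a single array with a single array. With slide as a block, where control 2 adds nothing to the difference, 0 of the 12 probes passed in either setting, with limma adjusted p from 0.177 to 0.997 in the second setting and 6 lower at an unadjusted p under 0.05, against 4.07% of all probes. In the first setting 5 were lower at that level, against 2.84% of all probes, of which 0.0743% were called lower and 0.475% higher after adjustment. Over all arrays the smallest exact two-sided permutation p that 3 against 3 arrays allow is 0.1.

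**Figure D3:**
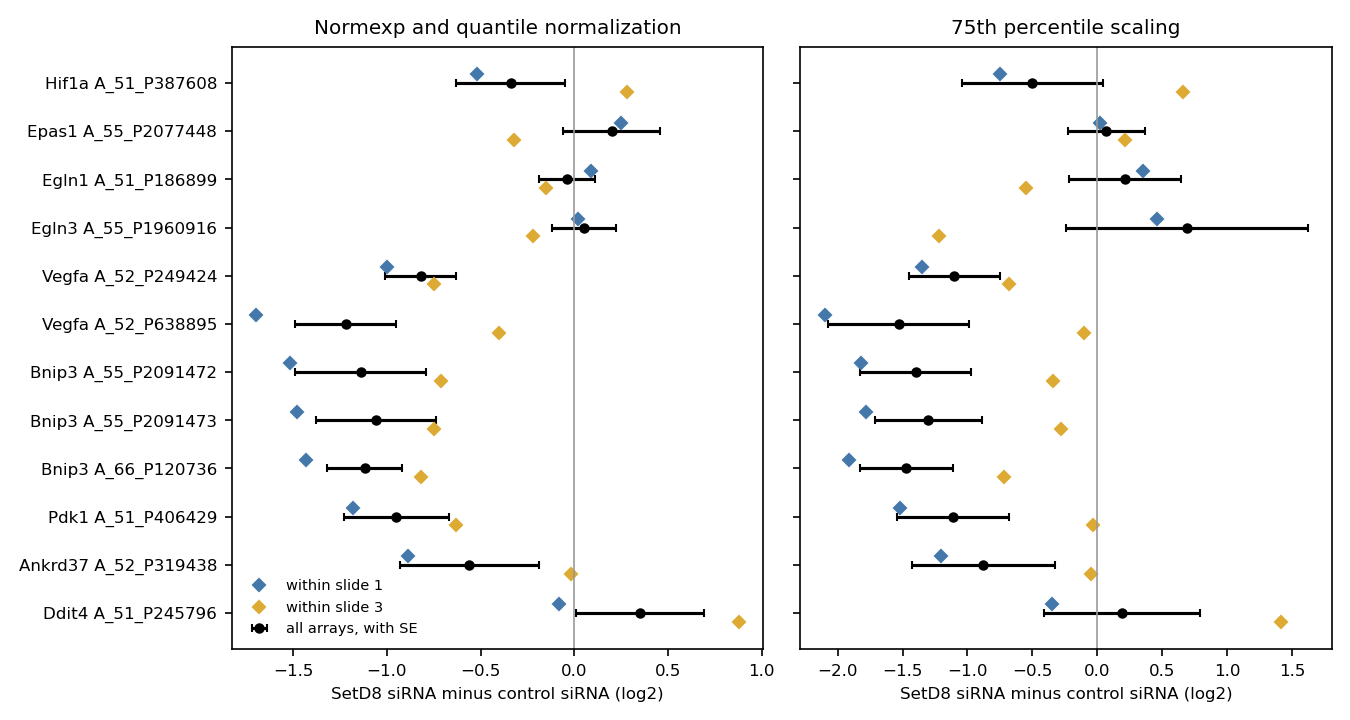
Difference (log2, SetD8 siRNA minus control siRNA) of each tested member probe over all 6 arrays, with the limma standard error, and within slide 1 and slide 3, in the second setting (left) and the first (right). Hif1a, Epas1, Egln1, Egln3 and Ddit4 lie on opposite sides of 0 in the 2 slides in the second setting. Vegfa, Bnip3 and Pdk1 can only lie left of 0, since their groups do not overlap.

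Other genes of the pathway were taken from lists of textbook knowledge, chosen with earlier results of these data known. Their counts therefore describe the lists and are no independent support. With the brightest tested probe for each gene, 0 genes in any of the 6 lists passed after adjustment with limma in either setting. The counts at an unadjusted p under 0.05 stand against 4.87% lower and 5.55% higher of all probes in the second setting, and 0.817% and 2.05% in the first. Among 17 genes of the HIF machinery, 2 were lower and 2 higher at an unadjusted p under 0.05, with a median difference of -0.08. Ep300 (lower) and Hif3a (higher) alone were under it in the first setting. Hif3a, a subunit that can restrain the other HIFs, stood at 8.54 in controls and 9.40 in SetD8 arrays (0.86, limma adjusted p = 0.119). Ep300, the acetyltransferase that HIF recruits, stood at 8.74 and 7.93 (-0.81, limma adjusted p = 0.146). The difference was 0.46 for P4htm, a transmembrane prolyl hydroxylase (limma adjusted p = 0.311).

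Among 30 further HIF targets outside glycolysis, 4 were lower and 0 higher at an unadjusted p under 0.05, and the median was -0.10. There were 2 lower and 1 higher in the first setting. Every SetD8 array lay below every control array for 7 of these 30 genes, against 8.67% of all probes, and above for 1. The difference was -0.58 for the hydroxylase gene Jmjd6 (limma adjusted p = 0.148), -0.64 for Nampt, an enzyme of NAD synthesis (0.227), and -0.89 for Higd1a, a mitochondrial protein of the respiratory chain (0.237). Among 19 glycolytic targets, 9 were lower and 1 higher at an unadjusted p under 0.05, with a median of -0.39. Only 5 were lower (Slc2a1, Hk2, Pfkl, Pfkp and Pgk1) and 0 higher in the first setting. The glucose transporter gene Slc2a1 had the most negative difference of these, -1.31 (limma adjusted p = 0.0958), with -1.16 for hexokinase Hk2 (0.0898) and -0.73 for Pfkp, a phosphofructokinase (0.114). The 1 higher gene was Pfkm, another phosphofructokinase, at 0.73 (limma adjusted p = 0.19), with every SetD8 array above every control array.

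The last 3 lists hold partners of single members. Of 10 genes of pyruvate dehydrogenase and its other kinases and phosphatases, 1 was lower and 0 higher at an unadjusted p under 0.05, with a median of -0.24. The difference was -0.37 for Pdhb, an enzyme subunit, -0.32 for the phosphatase Pdp1 and -0.27 for Pdk3, each with a limma adjusted p of 0.463 to 0.519. Of 7 other VEGF ligands, receptors and adrenomedullin receptor subunits, 0 were lower and 0 higher at an unadjusted p under 0.05. Kdr, a VEGF receptor, differed by 0.33 (limma adjusted p = 0.825) and Figf by 0.26 (limma adjusted p = 0.741). Vegfb read 17.53 on control 3 and 9.04 to 9.87 on the other arrays, so its difference of -2.44 rests on that array. Of 12 genes of the pathway from Ddit4 to mTORC1 and its targets, 1 was lower and 1 higher at an unadjusted p under 0.05. These 3 lists held 0 lower and 1 higher, Sesn2, in the first setting. Sesn2, a stress-induced inhibitor of mTORC1, stood at 10.91 and 12.07 (1.15, limma adjusted p = 0.123). The difference was -0.51 for the kinase gene Rps6kb1 (limma adjusted p = 0.232) and 0.22 for Sesn1 (limma adjusted p = 0.623).

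**Figure D4:**
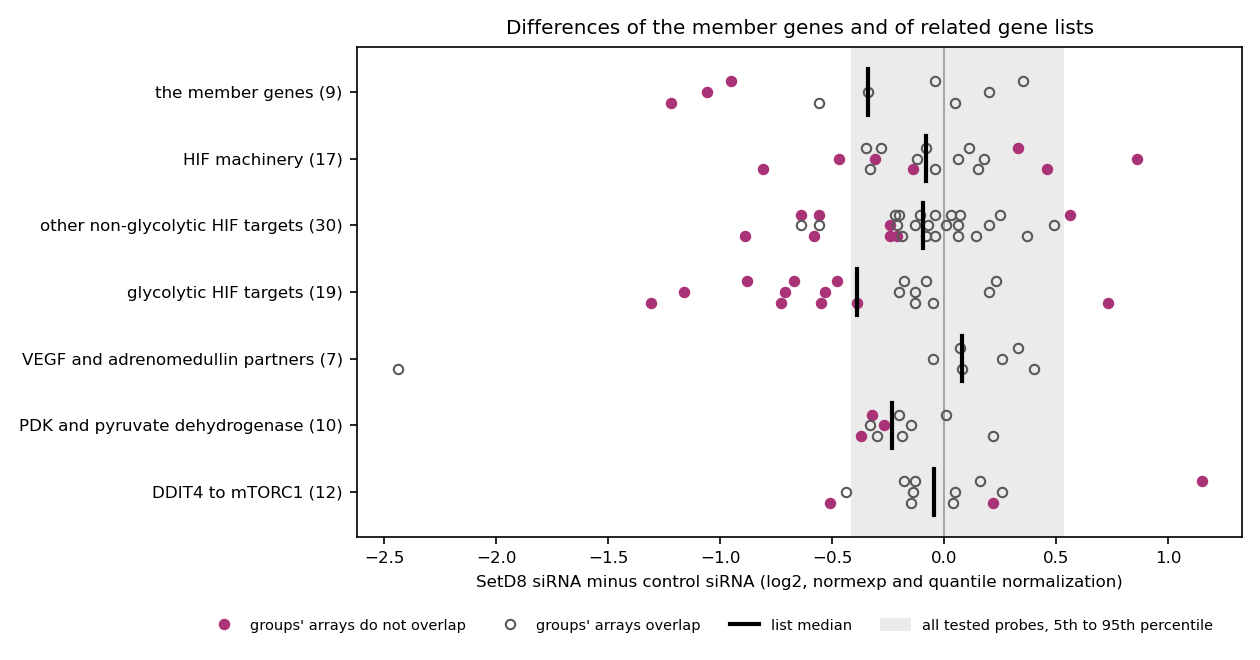
Difference (log2, second setting) of the brightest tested probe of each gene, for the 9 member genes and 6 related lists, with the number of genes in parentheses and a bar at each median. Filled points are genes whose groups do not overlap. Filled to the left of 0 are 3 of the 9 member genes and 10 of the 19 glycolytic genes, against 8.67% of all tested probes. The grey band spans the 5th to the 95th percentile of all tested probes (-0.41 to 0.53).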

How the data were processed

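The deposited files give the linear intensity of each spot of 1-colour Agilent arrays. Per the file headers, Agilent's software version was 10.7.3.1 and probe coordinates are on mm9. Exon and UTR annotation of that build was not used here. The submitters' processing notes name limma; how the authors normalized is not stated there. The deposited value table holds the same intensity.

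Control spots and spots marked as outliers were left out, and spots of a probe were averaged in log2. Both settings were fitted with limma 3.58.1 in R 4.3.3 on 30971 probes. The setting fixed as the main one is that with the 75th percentile; the other was carried in full because an earlier analysis had found 0 calls in the first. The members and lists were chosen with earlier results of these data known. All member probes, Setd8 and, from each pathway list, the 3 genes with the smallest p were named, plus markers and further list genes set beside a result. Groups came from the sample titles. Promoter windows were RefSeq's, searched with Python 3.11.15.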

Additional observations from a re-analysis of the deposited data

How the results depend on the processing

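In the 75th percentile setting 0 of all probes passed; 170 did with slide as a block (147 higher, 23 lower), 151 among probes well above background on all arrays, 31 with normexp before scaling, and 0 to 57 with 1 array left out (57 without control 2). Member probes passing went from 0 to 2 with that stricter filter (Vegfa, adjusted p = 0.0197; Bnip3, 0.0289, limma). In the normexp and quantile setting 99 of all probes passed; 0 did with slide as a block, 0 with the replicate block, 355 with the stricter filter, 33 with an offset of 16, 795 with a trended robust prior, 3102 with array weights (1484 higher, 1618 lower) and 0 to 102 with 1 array left out (0 without control 1 or any 1 of the SetD8 arrays). Member probes passing went from 0 to 1 with the stricter filter (Bnip3), 2 with the robust prior (Vegfa and Bnip3), 7 with array weights (2 of Vegfa, 3 of Bnip3, Pdk1 and Ankrd37) and 0 to 1 with 1 array left out. The array weights were 8.58 for control 1 and 0.27 to 1.18 for the others. The replicate block left 0 member probes passing in both settings. In the titles, same-numbered arrays shared only a number. Those numbered 1 also shared slide 1 and those numbered 3 shared slide 3, whereas control 2 and SetD8 2 lay on different slides. Correlations of the deviations of same-numbered arrays were 0.15, -0.28 and -0.29 in the normexp and quantile setting.

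Differences of Hif1a, Vegfa, Bnip3, Pdk1 and Ankrd37 were negative under every alternative run. For Vegfa, Bnip3 and Pdk1, whose groups do not overlap, runs that left out, blocked or weighted arrays could only give a negative sign. A change of filter left the differences as they were. The shared sign in those runs is therefore no separate support. The signs of Epas1, Egln1, Egln3 and Ddit4 turned, with no call. In the 75th percentile setting, slide as a block gave -0.04 for Egln1 and -0.26 for Egln3, median scaling gave -0.45 for Epas1, -0.30 for Egln1 and -0.33 for Ddit4 (median of all probes -0.41), and quantile normalization gave -0.04 for Egln1. In the normexp and quantile setting, slide as a block gave -0.09 for Egln3, and array weights gave 0.11 for Egln1 and -0.13 for Ddit4. With 1 array left out, values ran from -0.02 to 0.18 for Epas1, -0.10 to 0.58 for Egln1, -0.35 to 1.59 for Egln3 and -0.49 to 0.56 for Ddit4 in the 75th percentile setting. In the other they ran from -0.03 to 0.45, -0.13 to 0.04, -0.09 to 0.17 and -0.03 to 0.63. The cause was not tested. Egln3 was well above background on 2 of 3 control arrays, and the Adm probe and the untested Hif1a probe on 0 of 6 arrays.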
